A study of Homo sapiens with 8 samples.

Results

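LSM1 to LSM8 are the subunits of the LSM rings, and the data described here are their mRNA abundance and ribosome footprints in HEK293T cells with and without the 5′–3′ exonuclease XRN1. The members were the rows of the deposited count table whose gene is LSM1 to LSM8, and 8 of 8 were present among the 10105 genes of the table. HEK293T is a human embryonic kidney cell line. WT cells were compared with XRN1-null cells, an edited line made with Cas9 and a guide RNA against XRN1, and both were plated 24 h before harvest. mRNA was sequenced by RNA-Seq, from extracted total RNA, and ribosome-protected footprints (RPF) by Ribo-Seq. This makes 8 libraries, 2 biological replicates for each combination of genotype and assay. The paper states that its RNA-Seq misses mRNA fragments without poly(A) tails. It proposes that untranslated 3′ fragments accumulate and are sequenced in XRN1-null cells, so mRNA counts can include such fragments. Because the XRN1-null cells come from 1 edited line, effects of the missing protein and of that line cannot be told apart. The labels give no further treatment.

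LSM proteins are small proteins built around the Sm fold that close into rings on the 3′ ends of RNA. LSM2 to LSM7 are shared by a pair of rings that differ in a single subunit. With LSM1 they form the cytoplasmic ring, which works with the decapping activator PATL1 on deadenylated mRNA ahead of decapping by DCP2 and 5′–3′ decay by XRN1. With LSM8 in the place of LSM1 they form the nuclear ring, which binds the 3′ end of U6 snRNA and takes part in pre-mRNA splicing. The comparison therefore asks how the supply of a decapping activator, and of its splicing counterpart, stood in cells that lack the exonuclease acting after it.

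The RNA-Seq libraries held 33757487 to 38145433 counts and the Ribo-Seq libraries 1921641 to 4399542, with the lowest total in WT Ribo-Seq replicate 1. Levels are given in CPM, counts scaled to a library of 1 M counts, with TMM factors within each assay. XRN1 itself was at 33.5 and 33.0 CPM in WT mRNA and at 282 and 253 CPM in XRN1-null mRNA. Its footprints were at 34.4 and 49.8 CPM in WT and at 22.6 and 18.4 CPM in XRN1-null libraries, so the mRNA was higher and the footprints were lower in both libraries labelled XRN1-null. Of 6 markers listed for the cell line, VIM, KRT8 and KRT18 were in the table and PAX2, PAX8 and LHX1 were not. Of 11 markers of other cell types only COL1A1 was in the table, with a mean mRNA level of 14.6 CPM in WT against 37.1 CPM in XRN1-null libraries.

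The ring genes lie apart in the genome, on 6 chromosomes, with coordinates here on GRCh37 (hg19) from GENCODE release 44. LSM2 lies at chr6:31765173-31774743 on the minus strand and LSM3 at chr3:14220317-14242622 on the plus strand. LSM4 lies at chr19:18417046-18433922 and LSM7 at chr19:2321519-2328610, both on the minus strand. LSM5 lies at chr7:32524950-32534895 on the minus strand, LSM8 at chr7:117824198-117844089 on the plus strand and LSM6 at chr4:147096855-147121152 on the plus strand. Their coding sequences are short, from 240 nt for LSM6 to 417 nt for LSM4, and the reference transcripts have 4 or 5 exons. Processed pseudogenes are annotated for LSM1 (2), LSM3 (4) and LSM6 (1). None of them was in the table, so whether reads were exchanged between these copies and the genes could not be checked. On the other strand, LSM1 shares 438 exonic nt with an lncRNA that is not in the table and 198 exonic nt with BAG4, and its counts are therefore less certain.

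The 250 bases before the RefSeq start are shown for 3 genes, chosen as the members with the largest falls in mRNA (LSM5, LSM2) and with the highest footprint density (LSM3). All 3 windows lie outside the annotated gene. Capitals mark the letters of the motifs searched on both strands, each spelled out after the sequences.
LSM5 at chr7:32534896-32535145, minus strand: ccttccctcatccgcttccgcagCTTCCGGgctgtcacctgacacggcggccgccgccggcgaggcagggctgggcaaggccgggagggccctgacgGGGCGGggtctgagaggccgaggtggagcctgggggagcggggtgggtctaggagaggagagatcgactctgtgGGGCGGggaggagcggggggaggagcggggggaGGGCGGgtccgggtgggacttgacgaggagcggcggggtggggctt
LSM2 at chr6:31774744-31774993, minus strand: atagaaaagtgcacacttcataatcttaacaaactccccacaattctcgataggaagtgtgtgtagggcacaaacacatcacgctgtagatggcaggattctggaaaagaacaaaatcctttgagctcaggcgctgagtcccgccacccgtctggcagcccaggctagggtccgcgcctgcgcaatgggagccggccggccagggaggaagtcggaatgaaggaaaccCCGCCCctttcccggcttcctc
LSM3 at chr3:14220067-14220316, plus strand: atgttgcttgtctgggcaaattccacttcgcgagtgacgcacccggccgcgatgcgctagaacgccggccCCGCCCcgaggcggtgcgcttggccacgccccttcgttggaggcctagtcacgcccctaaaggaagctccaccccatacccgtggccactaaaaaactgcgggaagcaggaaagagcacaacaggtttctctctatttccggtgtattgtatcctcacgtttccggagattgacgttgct

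The LSM5 window was rich in G and C (74.8%), against 55.6% for LSM2, 58.8% for LSM3 and a median of 58.0% over 34788 RefSeq promoter windows. Of the motifs searched, the SP/KLF motif, spelled GGGCGG, is the one all 3 windows hold. It was found in 5 of the 6 members with a window in the table used (LSM2, LSM3, LSM4, LSM5 and LSM7), and it stands in 42.6% of all windows. The ETS motif, spelled CCGGAAG, was in the windows of LSM5 and LSM8 (8.50% of all windows) and the NF-Y motif, spelled CCAAT, in those of LSM4, LSM5 and LSM8 (32.0%). In LSM5 the CCAAT letters lie in a second window inside the annotated gene (52.4% G and C), which is not shown. The NRF1 motif, spelled GCGCATGC and overlapping its own reverse complement, and the YY1 motif, spelled ATGGCGG, were in the window of LSM7 alone among the members, against 2.57% and 2.88% of all windows. The TATA box letters, TATAAA, were in none of the members' windows and in 10.8% of all windows. LSM1 and LSM6 had no window here.

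All 8 ring mRNAs had lower values in both XRN1-null libraries than in both WT libraries, and 6 of them fell at an FDR below 0.005. The falls were largest for LSM5, LSM2 and LSM6, and smallest for LSM1 and LSM3, which did not pass. The median log2 change was -0.49 over the 8 members and -0.01 over all genes tested. The changes and calls come from edgeR's quasi-likelihood test on 2 against 2 libraries, with Benjamini-Hochberg adjustment over the whole table. Of all genes, 23.2% were called lower and 22.9% higher in mRNA, and 43.7% had both XRN1-null libraries below both WT libraries. Without XRN1-null replicate 1 or 2, 3 and 4 ring mRNAs were called lower, and without WT replicate 1 or 2, 7 and 8. The calls over the whole table moved along, from 2344 of 10105 genes to 1113 and 1097 without an XRN1-null library and to 3114 and 3389 without a WT library. CPM are shares of a library, so a lower value need not mean less of the mRNA per cell.

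**Figure D1:**
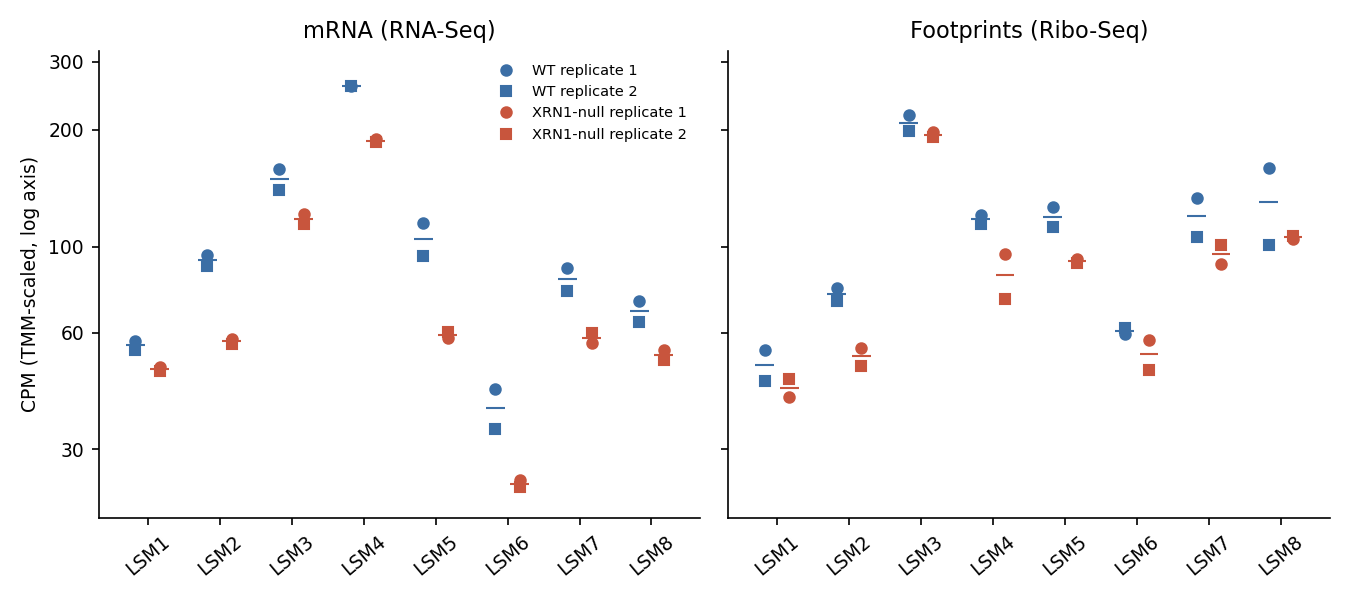
CPM (TMM-scaled, log axis) of LSM1 to LSM8 in each library, mRNA on the left and footprints on the right, with WT in blue, XRN1-null in red, circles for replicate 1, squares for replicate 2 and a bar at each mean of 2 libraries. In mRNA the red points lie under the blue points for 8 of 8 genes, and in footprints for 6 of 8.

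LSM5, a subunit of both rings, was at 115 and 94.6 CPM in WT and at 58.3 and 60.3 CPM in XRN1-null mRNA. Its log2 change was -0.82 ± 0.096 (SE, n = 2 per genotype, edgeR FDR 0.000234), lower than that of all but 3.48% of the genes. LSM2 was at 95.4 and 89.1 CPM in WT and at 57.9 and 56.1 CPM in XRN1-null cells, a log2 change of -0.70 ± 0.067 (edgeR FDR 9.9e-05). LSM6, the smallest of the proteins, was at 42.9 and 33.9 CPM in WT and at 24.95 and 24.0 CPM in XRN1-null cells. Its log2 change was -0.65 ± 0.115 (edgeR FDR 0.00171), and its WT libraries had the largest ratio to each other among the members (log2 0.34). With the RNA-Seq libraries thinned to the depth of Ribo-Seq it was at -0.31 and the call was lost (edgeR FDR 0.109). The XRN1-null libraries of these 3 genes were close together. For LSM5 and LSM2 the gap between the genotypes was larger than the spread within either, and for LSM6 it was close to the spread of the WT pair.

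LSM7 mRNA was at 88.1 and 77.0 CPM in WT and at 56.4 and 59.8 CPM in XRN1-null cells, a log2 change of -0.51 ± 0.082 (edgeR FDR 0.00112). With thinned RNA-Seq counts LSM7 was at -0.40 and the call was lost (edgeR FDR 0.00716). LSM4 was at 259.8 and 259.7 CPM in WT and at 189 and 186 CPM in XRN1-null cells, a log2 change of -0.47 ± 0.060 (edgeR FDR 0.000351). The WT replicates of LSM4 were the closest of the ring. LSM8, the subunit particular to the nuclear ring, was at 72.5 and 64.0 CPM in WT and at 54.0 and 51.0 CPM in XRN1-null cells, a log2 change of -0.38 ± 0.079 (edgeR FDR 0.00388). This call was lost with other scalings, at FDR 0.00596 with RLE factors and 0.0102 with library totals. It was also lost with thinned RNA-Seq counts, at a log2 change of -0.31 (edgeR FDR 0.0416).

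LSM3 was at 159 and 140 CPM in WT and at 121 and 114 CPM in XRN1-null mRNA, with a log2 change of -0.34 ± 0.079 that missed the threshold (edgeR FDR 0.00608). It passed with DESeq2 (FDR 0.0017), the likelihood ratio test (edgeR FDR 0.00042), the replicate block (edgeR FDR 0.00060) and without either WT library. LSM1, the subunit particular to the cytoplasmic ring, lies at chr8:38020853-38034248 on the minus strand. Its mRNA was at 57.2 and 54.3 CPM in WT and at 49.0 and 47.9 CPM in XRN1-null cells. Its log2 change of -0.20 ± 0.064 was the smallest of the 8 and was not called (edgeR FDR 0.0240). The groups did not overlap for either gene.

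Short coding sequences moved as a class in these libraries, and the ring genes are all short. Among 418 other genes with a coding length of 240 to 417 nt, 65.1% were called lower and 3.35% higher in mRNA, and their median log2 change was -0.48, close to that of the ring. The WT replicates differed in the same way, since WT replicate 1 was above WT replicate 2 for 84.4% of these genes and for 8 of 8 members, against 50.0% of all genes. With an offset for coding length in each library, an alternative added after seeing the data, 20.1% of 9323 genes were called lower and 17.5% higher, and only LSM5 of the ring remained so, at a log2 change of -0.36 (edgeR FDR 0.00316). LSM2 was then at -0.25 (edgeR FDR 0.00803), LSM4 at -0.11, LSM6 at -0.16 and LSM7 at -0.07. LSM1 (0.17), LSM3 (0.09) and LSM8 (0.07) changed sign. The fall of the ring mRNAs was thus of the size seen over coding sequences of this length, and which property of the short mRNAs or of the libraries it follows was not tested.

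**Figure D2:**
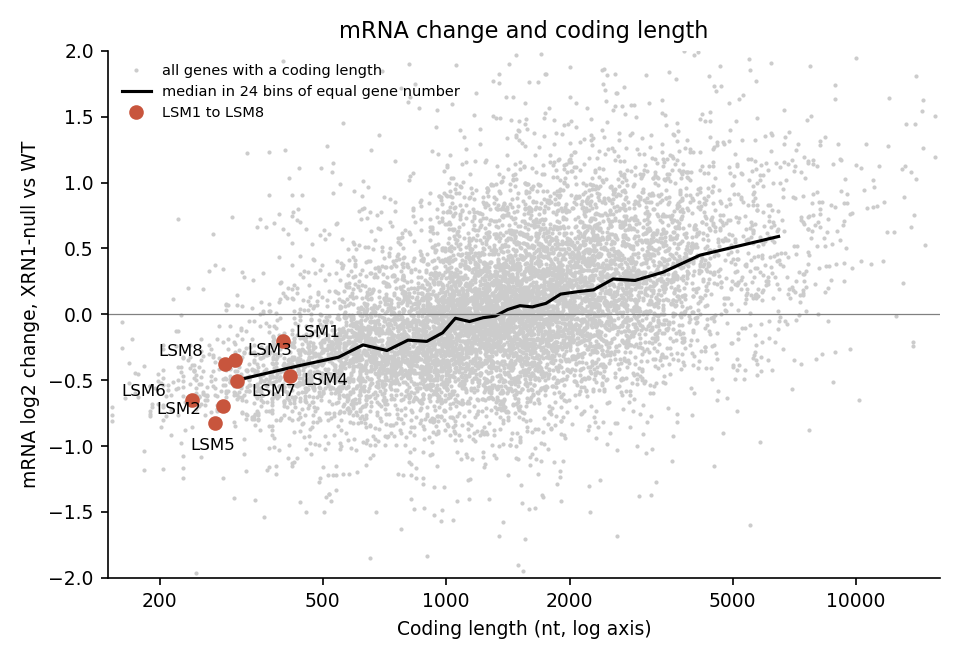
Log2 change in mRNA between XRN1-null and WT cells against coding length in nt (log axis), with all genes of known coding length in grey, their running median as a line and the 8 ring genes in red. The line climbs with length, and the ring genes lie at its short end, with LSM5, LSM2 and LSM6 the lowest of them.

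In footprints none of the 8 ring genes passed an FDR of 0.005. The median log2 change was -0.29 over the members, against -0.0033 over all genes, and 8 of 8 values were negative. Both XRN1-null libraries were below both WT libraries for 6 of the 8, all but LSM1 and LSM8, against 32.3% of all genes. Of all genes, 1.14% were called lower and 0.633% higher in footprints. Before adjustment 3 members (LSM2, LSM4 and LSM5) had a p below 0.05, as had 33.0% of all genes, and at an FDR of 0.05 LSM2 alone was called, against 8.38% of all genes. Without WT Ribo-Seq replicate 1 or 2, 2 and 5 members were called lower, and 707 and 1087 of all 10105 genes, up from 115.

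LSM2 footprints were at 78.1 and 72.6 CPM in WT and at 54.9 and 49.3 CPM in XRN1-null cells, a log2 change of -0.52 ± 0.144 (edgeR FDR 0.0319). LSM4 footprints were at 121 and 115 CPM in WT and at 95.6 and 73.4 CPM in XRN1-null cells, a log2 change of -0.47 ± 0.156 (edgeR FDR 0.0602). LSM5 footprints were at 127 and 112 CPM in WT and at 92.9 and 90.8 CPM in XRN1-null cells, a log2 change of -0.37 ± 0.140 (edgeR FDR 0.0905). The genotypes did not overlap in these 3 genes, and for LSM4 the gap between them was smaller than the spread of the XRN1-null pair.

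LSM7 footprints were at 134 and 106 CPM in WT and at 90.4 and 100.8 CPM in XRN1-null cells. LSM6 footprints were at 59.4 and 61.6 CPM in WT and at 57.6 and 48.1 CPM in XRN1-null cells. LSM3 was at 219 and 199 CPM in WT and at 197 and 192 CPM in XRN1-null cells. The groups of these 3 genes came close without overlapping, and their log2 changes were -0.31 (edgeR FDR 0.185), -0.19 (edgeR FDR 0.393) and -0.10 (edgeR FDR 0.640).

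Footprints of the ring-defining subunits overlapped between genotypes. LSM1 was at 54.2 and 45.02 CPM in WT and at 41.0 and 45.6 CPM in XRN1-null cells (log2 change -0.17, edgeR FDR 0.469). LSM8 was at 160 and 101 CPM in WT and at 104.8 and 106.4 CPM in XRN1-null cells (log2 change -0.28, edgeR FDR 0.335). The high LSM8 value came from the shallowest library, WT Ribo-Seq replicate 1, where the gene had 307 counts, and without that library the log2 change was 0.07. Without WT Ribo-Seq replicate 2 it was -0.59 (edgeR FDR 1.9e-05), so the direction for LSM8 rests on which WT library is used. Among the 418 other short genes the median footprint change was also negative, at -0.28, 1.91% were called lower and none higher, and WT replicate 1 was above WT replicate 2 in 87.3% of them, in 7 of 8 members and in 50.3% of all genes. With the offset for coding length, LSM1 (0.10), LSM3 (0.22), LSM6 (0.13), LSM7 (0.01) and LSM8 (0.07) were positive in footprints.

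**Figure D3:**
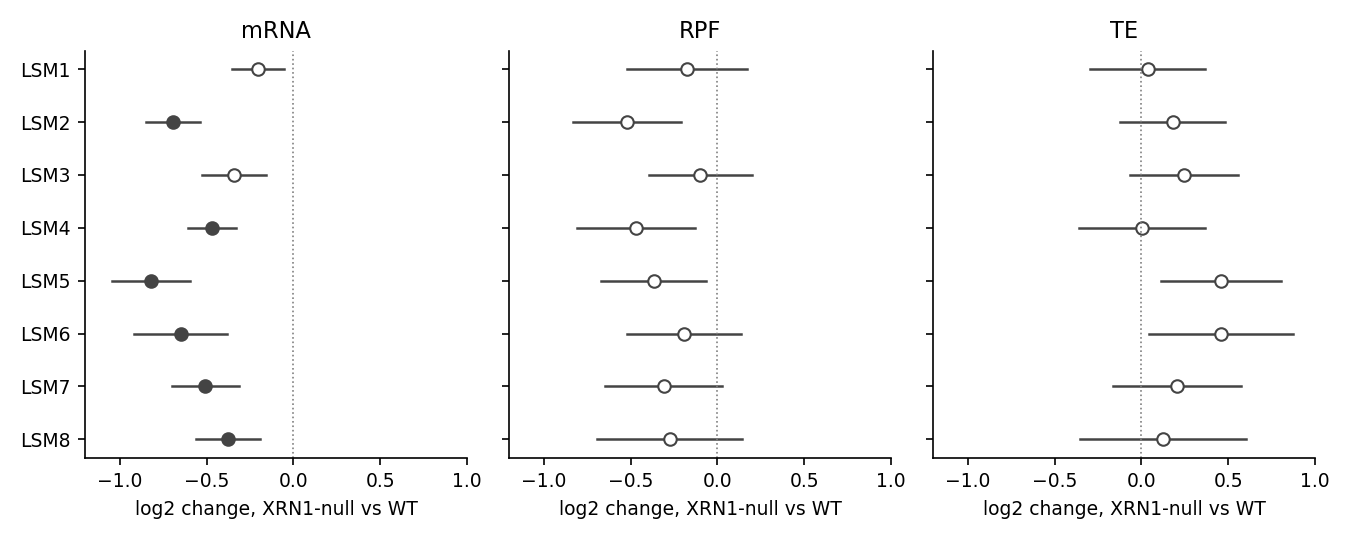
Log2 change between XRN1-null and WT cells for each ring gene in mRNA, footprints and translation efficiency (TE), with 95% confidence intervals from edgeR and filled points for an FDR below 0.005. All mRNA and footprint values lie left of 0 and all TE values at or right of it, and the TE intervals of LSM5 and LSM6 alone leave out 0.

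Translation efficiency (TE), the footprints relative to the mRNA, was tested in 1 model of all 8 libraries, as the part of the genotype difference that the assays do not share. No ring gene was called at an FDR below 0.005, where 1.78% of all genes were lower and 0.0495% higher. All 8 log2 changes were above 0, with a median of 0.19 against 0.01 over all genes, and 2 had a p below 0.05 before adjustment, as had 23.3% of all genes. LSM5 was at 0.46 (95% CI 0.11 to 0.81, edgeR FDR 0.107) and LSM6 at 0.46 (95% CI 0.04 to 0.87, edgeR FDR 0.172). LSM3 was at 0.25 (95% CI -0.07 to 0.56), LSM7 at 0.21 (95% CI -0.16 to 0.58) and LSM2 at 0.18 (95% CI -0.12 to 0.48). LSM8 was at 0.12 (95% CI -0.35 to 0.60), LSM1 at 0.04 (95% CI -0.29 to 0.37) and LSM4 at 0.00 (95% CI -0.36 to 0.37), and the sign of LSM1 and LSM4 turned with the scaling. Without WT Ribo-Seq replicate 2, LSM8 was at -0.21, LSM1 at -0.11 and LSM7 at 0.03. Lower mRNA, lower footprints and a positive TE change together were found in 22.9% of all genes. In the 418 other short genes the median TE change was 0.16 and 0.478% were called lower.

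As a ratio of footprint CPM to mRNA CPM, the TE of LSM8 was 1.91 in WT means, above that of 94.6% of all genes. This value includes the high LSM8 footprint level of WT replicate 1 (160 CPM against 101 CPM in replicate 2), so its order relative to LSM6, at 1.58, is not resolved. The ratio sets footprint counts per gene against mRNA counts per gene without dividing by a length, so the order of genes by TE depends on the length used. LSM7 was at 1.45, LSM3 at 1.398 and LSM5 at 1.14. LSM1 was at 0.89 and LSM2 at 0.82, near the middle of all genes, and LSM4 was lowest at 0.45, above only 17.4% of genes. In XRN1-null cells LSM6 was at 2.16 and LSM4 was again lowest at 0.45. LSM5 stood at 1.55 and LSM8 at 2.01 in these cells.

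Footprint counts of each gene were divided by its coding length to compare the subunits, and the 8 subunits were not at 1 level. The counts are per gene, and whether all these footprints lie in the coding sequence was not tested. In WT cells LSM3 was highest, at 683 ± 45.3 CPM per kb (SD, n = 2), and LSM1 lowest, at 124 ± 16.2 CPM per kb. Between them were LSM8 at 453 ± 144, LSM5 at 437 ± 37.5 and LSM7 at 388 ± 64.5 CPM per kb. LSM4 was at 282 ± 10.6, LSM2 at 264 ± 13.8 and LSM6 at 252 ± 6.42 CPM per kb. The libraries overlapped between the neighbours LSM8 and LSM5, LSM5 and LSM7, and LSM2 and LSM6, so these orders are not resolved, and the other neighbours were apart. In XRN1-null cells LSM3 (636 ± 12.0 CPM per kb) and LSM1 (108 ± 8.15) again stood at the ends. LSM8 was at 367 ± 4.06, LSM5 at 336 ± 5.27 and LSM7 at 309 ± 23.9 CPM per kb, followed by LSM6 at 220 ± 28.1, LSM4 at 203 ± 37.7 and LSM2 at 183 ± 13.8, whose neighbours overlapped.

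**Figure D4:**
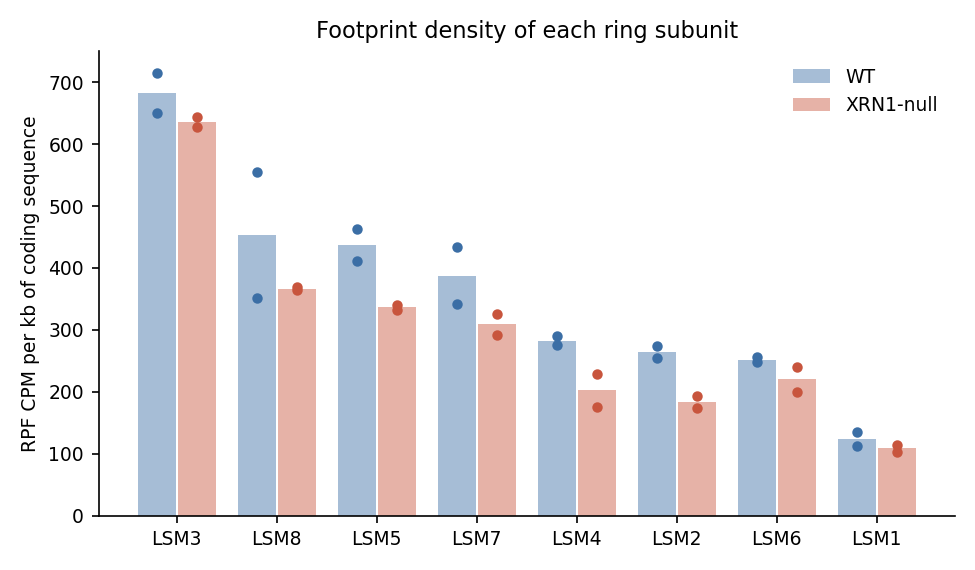
Footprints per kilobase of coding sequence (CPM per kb) of each LSM subunit, ordered by the WT mean, with WT in blue and XRN1-null in red, bars for the mean of 2 libraries and points for the libraries. LSM3 is highest and LSM1 lowest in both genotypes, and the points of LSM8 in WT are the farthest apart.

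The spread over the LSM subunits was 5.49-fold from lowest to highest in WT means, a coefficient of variation (CV) of 47.1%, and 5.86-fold in XRN1-null means (CV 55.0%). The Sm ring, whose proteins share the fold and sit on the other spliceosomal snRNAs, spread by 1.61-fold in WT (CV 17.2%) and by 1.58-fold in XRN1-null means (CV 19.8%) over 7 subunits. Its WT means lay between 1120 and 1801 CPM per kb, all above those of the LSM subunits. Per kilobase of the deposited width in place of the coding length, the CV of the LSM footprints in WT was 97.2%. The width of LSM8 is 12520 nt, of which 2.30% is coding, and that of LSM7 is 59.4% coding. LSM1 and LSM8 take the same place in alternative rings, and their summed density was 691 and 464 CPM per kb in WT and 467 and 484 CPM per kb in XRN1-null libraries. The mean of LSM2 to LSM7 was 404 and 365 CPM per kb in WT and 323 and 306 CPM per kb in XRN1-null libraries. The sum was above the mean of the shared subunits in 4 of 4 libraries, though single shared subunits ranged from 247 to 715 CPM per kb in WT replicate 1.

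mRNA levels per kilobase of the deposited width followed another order. In WT cells LSM3 (215 ± 18.8 CPM per kb), LSM7 (159 ± 15.1), LSM4 (142 ± 0.035) and LSM2 (105 ± 5.07) were highest. LSM6 (48.8 ± 8.14) and LSM1 (48.0 ± 1.77) overlapped, and LSM5 (32.1 ± 4.39) and LSM8 (5.45 ± 0.477) were lowest. In XRN1-null cells LSM1 (41.7 ± 0.667) was above LSM6 (31.1 ± 0.838), with the libraries apart, and the other ranks stayed in place. The low values of LSM8 and LSM5 rest on widths of 12520 and 3265 nt.

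Since LSM1 and LSM8 set which ring is formed, their ratio was taken within each library, where no scaling enters. Coding length can still enter, at 399 nt for LSM1 and 288 nt for LSM8. With the length offset their mRNA log2 changes were 0.17 and 0.07, against -0.20 and -0.38 without it. In mRNA the count ratio of LSM8 to LSM1 was 1.27 and 1.18 in the WT libraries, against 1.10 and 1.07 in the XRN1-null libraries, so the groups did not overlap. The log2 ratio was 0.29 ± 0.073 for WT against 0.12 ± 0.034 for XRN1-null (SD, n = 2), a difference of -0.17. The two-sided exact permutation test gave p = 0.33, the smallest value that 2 against 2 libraries allow. In footprints the count ratio was 2.95 and 2.24 in the WT libraries, against 2.56 and 2.34 in the XRN1-null libraries. These groups overlapped, with a log2 difference of -0.07 (exact permutation p = 1.0), which turned to 0.12 with 1 library left out.

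The other Sm-fold rings and the partners of the LSM rings were counted from lists fixed for this comparison. In the Sm ring 6 of 7 mRNAs fell and none rose, with a median log2 change of -0.61, against 23.2% of all genes and 65.1% of the 418 other short genes called lower. SNRPE was at -0.73 ± 0.067 (edgeR FDR 7.9e-05) and SNRPF at -0.69 ± 0.060 (edgeR FDR 6.6e-05), and SNRPB was not called. No Sm gene was called in footprints or in TE. The Sm coding sequences are short as well, with a median of 354 nt, and with the offset for coding length SNRPE alone was called lower, against 20.1% of all genes.

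Of 11 other proteins with an LSm fold, 5 mRNAs fell and 2 rose, against 23.2% lower and 22.9% higher over all genes, and the median was -0.25. GEMIN6, a subunit of the SMN complex, fell by 0.60 and LSM10, a subunit of the U7 snRNP that processes histone mRNA, fell by 0.52 on the log2 scale. LSM11, the U7 partner of LSM10, rose by 0.37 and ATXN2, a large cytoplasmic RNA-binding protein, rose by 1.06. The coding sequences of this list run from 369 to 3465 nt. None of the 11 was called in footprints or TE, and with the length offset 1 fell (ATXN2L) and 2 rose (ATXN2 and LSM11), against 20.1% and 17.5% of all genes.

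Of 12 decapping partners of the cytoplasmic ring, no mRNA fell and 4 rose (XRN1, the edited gene, PATL1, DCP1A and DDX6). Over all genes, 23.2% were called lower and 22.9% higher. The median was 0.18, and 4 of the 12 values were negative. PATL1, which binds the LSM1 to LSM7 ring, rose in mRNA by 0.72 ± 0.062 (edgeR FDR 6.1e-05), while its footprints were at a log2 change of 0.09 (edgeR FDR 0.717) and its TE at -0.63 (edgeR FDR 0.0204). DDX6, a helicase of the decapping complex, rose by 0.36 in mRNA and by 0.92 in footprints (edgeR FDR 0.00435), and was the 1 partner called higher in footprints, against 0.633% of all genes. XRN1 was the 1 partner called in TE, where it fell by 4.09 and 1.78% of all genes were called lower. These are longer coding sequences, with a median of 1486.5 nt, and with the length offset XRN1, PATL1 and DDX6 were called higher and DCP1A was not, against 17.5% of all genes called higher.

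**Figure D5:**
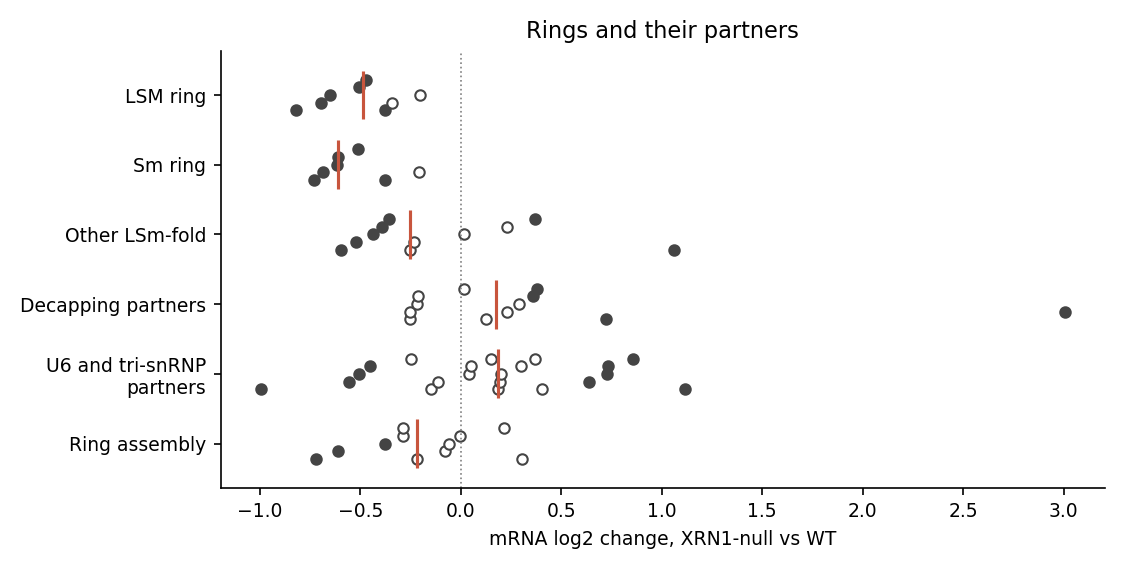
Log2 change in mRNA of each gene of 6 lists, with filled points for an FDR below 0.005 and a red bar at each list's median. The LSM and Sm rings lie under 0, and the decapping partners lie on both sides of it, with XRN1 at 3.01.

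Of 21 nuclear partners of the U6 ring and of the tri-snRNP, 4 mRNAs fell and 5 rose, near the shares over all genes (23.2% lower and 22.9% higher), with a median of 0.19. USB1, which trims the 3′ end of U6 snRNA, fell by 0.99 in mRNA (edgeR FDR 7.0e-05) and footprints fell by 1.49 (edgeR FDR 0.0036), the 1 call of this list in footprints, where 1.14% of all genes were called lower. PPIH, a peptidyl-prolyl isomerase of the tri-snRNP, fell by 0.56. The tri-snRNP proteins PRPF3 and SART1 rose by 1.12 and 0.85. With the length offset PRPF8 and USB1 were called lower, and PRPF3, SART3 and USP39 higher, no larger shares than the 20.1% and 17.5% over all genes. Of 11 factors of ring assembly, 3 mRNAs fell and none rose, and the median was -0.22. The share that fell is near the 23.2% of all genes called lower. CLNS1A, the chaperone that holds Sm proteins before assembly, fell by 0.72 and WDR77, its partner in the PRMT5 methylosome, fell by 0.61 (edgeR FDR 0.000123 and 0.000167). With the length offset CLNS1A, GEMIN4, GEMIN5 and WDR77 were called lower, against 20.1% of all genes. SMN1 and SMN2 are near-identical copies and carry identical counts in every library.

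The genes whose profile over the 8 libraries was nearest to the mean of the ring members were found by Euclidean distance on log2 CPM centred within each assay. They were DUT, which hydrolyses dUTP (distance 0.0466), ATOX1, a copper chaperone (0.0604), C1orf123 (0.0673), HINT1, a nucleotide hydrolase (0.0719), and SUMO3, a protein modifier (0.0740). The ring members themselves lay between 0.198 (LSM7) and 0.366 (LSM1) from their mean, against a median of 0.785 over all genes. Their mRNA log2 changes, from -0.47 (SUMO3) to -0.56 (C1orf123), follow from this choice. The coding sequences of ATOX1 (204 nt), SUMO3 (309 nt) and HINT1 (378 nt) are also short, and that of DUT is 756 nt.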

How the data were processed

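HEK293T cells, WT or XRN1-null, were profiled by RNA-Seq for mRNA and by Ribo-Seq for footprints, with 2 libraries of each kind grouped by the sample labels. The authors removed rRNA reads with Bowtie2, mapped the others to hg19 with Tophat2, selected footprint lengths with clear periodicity, and deposited raw counts per gene (QuasR) with a width per gene, keeping expressed genes. Deposited log2 fold changes, p-values and TE values of the authors' comparisons were not used.

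edgeR 4.0.16 in R 4.3.3 was run on all 10105 genes with TMM factors within each assay, the quasi-likelihood test and Benjamini-Hochberg adjustment, calling at an FDR below 0.005. The RNA-Seq libraries hold 33757487 to 38145433 counts and the Ribo-Seq libraries 1921641 to 4399542. TE was fitted as an interaction term. RiboDiff was not run. Labels number the replicates, which the study's methods call biological, without saying whether cultures were separate, so p-values measure the spread between these libraries. Counts include PCR duplicates.

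Members and lists were chosen with earlier results of these data known. Named genes are the 8 members, XRN1, up to 2 largest rises and falls per list among called mRNAs, and the 5 nearest profiles. Other genes named as called were added after their values were seen. Positions and coding lengths came from GENCODE 44 on GRCh37, known for 9323 genes, and promoter windows from RefSeq. The alternatives were RLE factors, library totals, DESeq2 1.42.0, a likelihood ratio test, replicate blocks, a minimum of 10 counts, thinned RNA-Seq counts, an FDR of 0.05, leaving out each library, and a coding length offset (loess, span 0.3) added after seeing the data. The test functions were tested on simulated data.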

Additional observations from a re-analysis of the deposited data

How the results depend on the processing

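LSM2, LSM4, LSM5, LSM6 and LSM7 mRNA kept a negative log2 change under every alternative run. The count of 6 ring mRNAs called lower was 3 with thinned RNA-Seq counts and 1 with the coding length offset, and ranged from 3 to 8 when single libraries were left out, with the low end without XRN1-null RNA-Seq replicate 1. LSM1, LSM3 and LSM8 mRNA reversed with the offset (0.171, 0.0925 and 0.0706). In footprints no member was called, 1 was at an FDR of 0.05, and 0 to 5 were with a library left out (2 without WT replicate 1, 5 without WT replicate 2). With the offset, footprint changes of LSM1 (0.10), LSM3 (0.22), LSM6 (0.13), LSM7 (0.0142) and LSM8 (0.0726) reversed, and so did the TE changes of LSM1 (-0.0685) and LSM4 (-0.0858). LSM8 footprints ranged from -0.587 to 0.0677 with single libraries left out, and the TE changes of LSM1 from -0.11 to 0.14, of LSM4 from -0.21 to 0.17 and of LSM8 from -0.21 to 0.45. LSM1 TE was -1.13e-05 with library totals. LSM4 TE was -0.00525 with RLE factors, -0.0335 with library totals, -0.00643 with DESeq2, -0.0205 with a minimum of 10 counts and -0.0341 with thinned counts.

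The replicate numbers were not shown to pair libraries (correlation of deviations across genotypes 0.190 in RNA-Seq and 0.0803 in Ribo-Seq, and across assays 0.355 in WT and 0.0326 in XRN1-null cells, 2 pairs each). With the replicate block 7 ring mRNAs were called lower and no member in footprints or TE, and LSM4 TE was -0.0240, or -0.00248 with a culture replicate block. Over all 10105 genes, mRNAs called lower went from 2344 to 2805 with the block. Footprints called lower went from 115 to 665 and higher from 64 to 616 with the block. TE called lower went from 180 to 435 and higher from 5 to 55 with the culture replicate block.

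Over all genes, 2344 mRNAs called lower became 1474 with thinned counts and 1097 to 3389 with single libraries left out. Footprints called lower were 596 with the likelihood ratio test, 847 at an FDR of 0.05, 333 with the offset and 72 to 1087 with single libraries left out. Footprints called higher were 133 with library totals, 98 with DESeq2, 469 with the likelihood ratio test, 714 at an FDR of 0.05, 258 with the offset and 71 to 1282 with single libraries left out. TE called lower was 322 with DESeq2, 596 with the likelihood ratio test, 653 at an FDR of 0.05, 86 with the offset and 19 to 230 with single libraries left out. TE called higher was 71, 103 and 10 under the last 3 alternatives in that order and 0 to 9 with single libraries left out. The CV of WT footprint levels was 97.2% per width and 47.1% per coding length. Where a library was left out, the lone sample was assumed to vary like the other genotype's. WT Ribo-Seq replicate 1 had the lowest total, Ribo-Seq counts were not thinned, and the cause of these shifts was not tested.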
